A study of Mus musculus with 6 samples.

Results

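The regions described here are the ATAC-seq peaks that the authors' gene column assigns to 10 genes of the primitive streak and of the T-box family: Eomes, T, Mixl1, Tbx3, Tbx6, Tbx20, Mesp1, Mesp2, Tbx4 and Tbx2. All 10 genes had at least 1 peak, and together they held 39 of the 70494 peaks of the table. Tbx20 had 10 of them, T 9, Eomes 7, Mixl1 3, Tbx3, Tbx6, Mesp2 and Tbx4 2 each, and Mesp1 and Tbx2 1 each. ATAC-seq reads out open chromatin by the sites at which a transposase can insert sequencing adapters. The cells were definitive endoderm, the germ layer that forms the gut lining, differentiated from mouse epiblast stem cells of the line 7H OTX2-dTAG-EGFP (BL6/129 hybrid), in which the labels name OTX2 with a degradation tag and EGFP. Both groups carried the tagged OTX2 and received Activin A at 40 ng/ml with CHIR at 3 uM for 16 h, followed by Activin A at 100 ng/ml with LDN at 100 nM for 24 h. From the primitive streak stage, 3 libraries came from cells given the solvent DMSO for 24 h and 3 from cells given dTAG13, a molecule that directs the tagged protein to degradation. All libraries came from a single named cell line, and the series text describes the libraries of a group as technical replicates, so errors and p-values measure the spread between repeated libraries, which need not include that between cultures. OTX2 protein itself is not measured in these data.

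In the embryo, cells of the epiblast pass through the primitive streak to become mesoderm or definitive endoderm under NODAL and WNT signals. T-box factors bind DNA through a shared domain that recognises a short consensus. Among them, Eomes is required to form definitive endoderm and T (Brachyury) drives the formation of posterior mesoderm and notochord. Mixl1 is a homeobox factor of the streak that promotes endoderm, Mesp1 and Mesp2 are basic helix-loop-helix factors of early mesoderm, and Tbx6 specifies the paraxial mesoderm. Tbx20 acts in the heart, Tbx4 in the hindlimb, and Tbx2 and Tbx3 are mainly repressors.

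The sequences shown are those of the only 2 peaks of these genes with an adjusted p under 0.05 in the authors' deposited table. The sequences also cover the peaks at the start sites of Eomes and T and the strongest Eomes peak. They were read from GRCm38.p6, the assembly of mm10, and are written 5′ to 3′ on the strand of the gene. Bases inside annotated exons were left out, and peaks longer than 300 bases are shown by 300 bases around their midpoint. Capitals mark every match, on either strand, to the consensus sequences that were searched. The strongest Eomes peak was added after its values were seen.
Mixl1 promoter peak, chr1:180697182-180697481, minus strand: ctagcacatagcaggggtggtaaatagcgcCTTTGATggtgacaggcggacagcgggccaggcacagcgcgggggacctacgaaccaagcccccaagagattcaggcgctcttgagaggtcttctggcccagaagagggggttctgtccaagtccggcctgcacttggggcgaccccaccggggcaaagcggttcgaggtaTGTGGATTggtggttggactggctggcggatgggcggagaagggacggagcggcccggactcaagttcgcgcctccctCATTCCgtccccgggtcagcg
Tbx20 upstream peak, chr9:24782244-24782543, minus strand: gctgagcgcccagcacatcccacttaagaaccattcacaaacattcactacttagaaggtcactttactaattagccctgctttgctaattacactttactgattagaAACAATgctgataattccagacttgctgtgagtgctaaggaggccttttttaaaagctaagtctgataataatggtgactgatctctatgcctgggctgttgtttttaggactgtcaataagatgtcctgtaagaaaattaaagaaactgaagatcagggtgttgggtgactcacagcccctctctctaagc
Eomes start-site peak, chr9:118478099-118478211, plus strand: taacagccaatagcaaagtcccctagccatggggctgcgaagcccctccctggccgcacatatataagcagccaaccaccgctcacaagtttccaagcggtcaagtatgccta
Eomes downstream peak, chr9:118486899-118487169, plus strand: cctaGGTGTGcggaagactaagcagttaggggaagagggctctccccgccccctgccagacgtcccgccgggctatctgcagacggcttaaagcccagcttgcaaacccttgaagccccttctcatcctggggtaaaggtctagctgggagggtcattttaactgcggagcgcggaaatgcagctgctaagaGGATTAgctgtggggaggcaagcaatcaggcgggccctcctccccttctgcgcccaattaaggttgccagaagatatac
T start-site peak, chr17:8434127-8434242, plus strand: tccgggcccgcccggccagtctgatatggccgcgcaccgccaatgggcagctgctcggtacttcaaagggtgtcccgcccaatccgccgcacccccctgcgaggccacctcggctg
In the Mixl1 run the capitals are, in order, the TCF/LEF consensus CTTTGAT, the FOXH1 consensus AATCCACA read on the opposite strand, and the TEAD consensus GGAATG, also on the opposite strand. The Tbx20 run holds 1 SOX consensus ATTGTT, on the opposite strand, and no OTX consensus GGATTA. The Eomes downstream run holds the T-box core GGTGTG and 1 OTX consensus. Neither start-site run of Eomes and T holds any of the consensus sequences.

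The table gives, for each peak, 1 mean normalized count over the 6 libraries and the log2 fold change of dTAG13 over DMSO with its standard error (SE), so values per library cannot be shown. A peak was called changed when the authors' deposited table gave it an adjusted p under 0.05. That p comes from a two-sided normal test of the fold change over its SE, with Benjamini-Hochberg adjustment over the 69128 tested peaks. For each group, a level in normalized counts was computed from the mean and the fold change, assuming that the mean weights the 6 libraries equally. The sequencing depth of the libraries is unknown. All peaks had a median mean normalized count of 7.33 (quartiles 4.26 and 14.9), and their log2 fold changes had a median of -0.18. The median was 0.09 over the peaks found in both groups' pooled peak lists, so small fold changes depend on which zero point is taken. Among markers of cell types, all 9 definitive endoderm markers examined (Sox17, Foxa2, Cxcr4, Gata4, Gata6, Hhex, Cer1, Epcam and Foxa1) had a peak within 1 kb of a start site. So had 6 of 11 mesoderm markers, 5 of 6 epiblast markers and 4 of 5 neural markers. Of all 26796 genes with a peak, 14926 had one within 1 kb of a start site. The mesoderm markers without such a peak were Msgn1, Hand2, Meox1, Twist1 and Foxc2. Open promoters of this kind do not show expression. With epiblast and neural markers nearly as often open, they do not tell these cell types apart.

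Of the 39 peaks, 2 (5.13%) were called by the authors' deposited table, against 5.26% of all 69128 tested peaks. A promoter peak of Mixl1 was higher in dTAG13, where 1.47% of all tested peaks were called higher, and an upstream peak of Tbx20 was lower, where 3.79% were called lower. An unadjusted p under 0.05 was given to 8 of the 39 (20.5%), against 19.7% of all peaks. These shares lie near those of all peaks. The peaks split into 24 with a negative and 15 with a positive log2 fold change, a split that became 20 against 19 with the median of all peaks set to 0. Their median was -0.19 (quartiles -0.73 and 0.80), beside -0.18 for all peaks. The sum of the group levels over the 39 peaks was 545.4 normalized counts in DMSO and 546.5 in dTAG13.

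**Figure D1:**
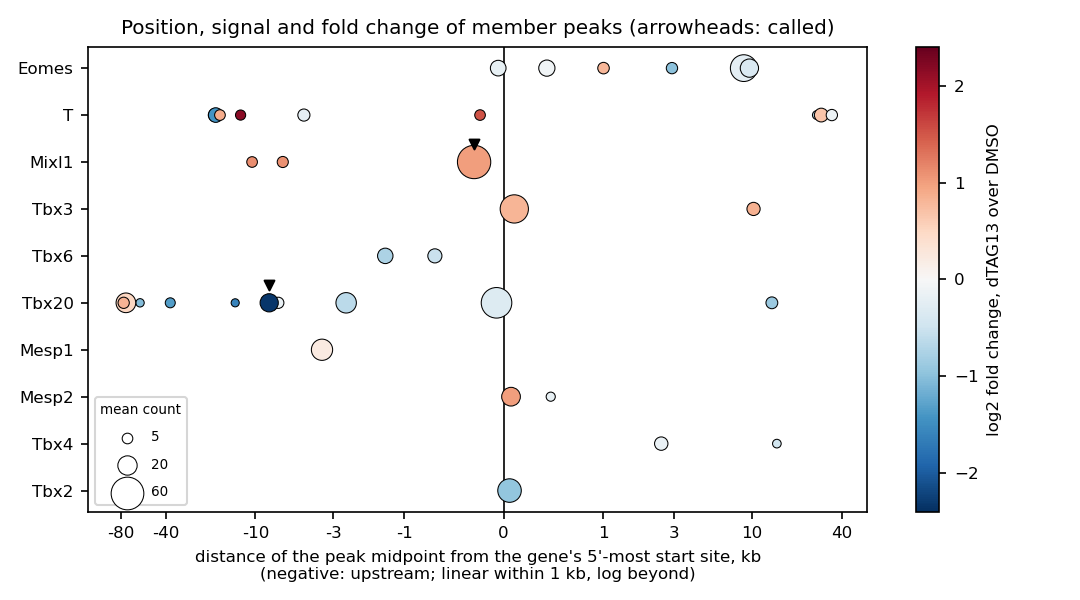
Position of the 39 peaks relative to the 5′-most start site of each gene, in kb (linear within 1 kb and logarithmic beyond, upstream to the left). Circle area grows with the mean normalized count and colour gives the log2 fold change of dTAG13 over DMSO; the arrowheads mark the called peaks, at the Mixl1 promoter and 8091 bases upstream of Tbx20.

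Mixl1 gained accessibility at its promoter. The peak (chromosome 1, 180696990 to 180697674, 685 bases, annotated by the authors as promoter within 1 kb) had its midpoint 298 bases upstream of the start site. Its level was 41.7 normalized counts in DMSO and 83.2 in dTAG13. The authors' deposited table gives it a log2 fold change of 0.998 (SE 0.24) and an adjusted p of 0.0031 (95% interval 0.53 to 1.46), about 2.00-fold. The change falls just short of a log2 fold change of 1, the further condition of the enriched lists, so the peak is in neither of them. With a mean of 62.4 it was the strongest of the 39 peaks, at percentile 97.7 of all peaks. It overlapped a peak of both pooled lists by at least 1 base, but only the dTAG13 list by 50% of both peaks. The remaining Mixl1 peaks were intergenic, 6558 and 10539 bases upstream, and weak, with means of 5.60 and 5.04. Their levels were 3.56 and 3.20 in DMSO and 7.64 and 6.89 in dTAG13, log2 fold changes of 1.10 (SE 0.82) and 1.11 (SE 0.81) that were not called by the authors' deposited table (adjusted p 0.483 and 0.473). All 3 Mixl1 peaks thus had positive values of similar size, under each of the 3 other zero points as well, but at the distal peaks the 95% intervals ran from -0.51 to 2.72 and from -0.49 to 2.70. Both distal peaks were in the dTAG13 list alone, and so entered the table through the group where they were higher. Their positive sign is therefore not separate evidence beside the promoter peak.

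A region assigned to Tbx20, upstream of the gene, lost accessibility. Of the 10 peaks assigned to Tbx20, 8 lie nearer to a start site of another gene in GENCODE (4 to Gm29824, the called region among them, and 4 to Amd-ps6), so with assignment to the nearest start site Tbx20 had no called peak. The called peak (chromosome 9, 24782205 to 24782582, 378 bases, distal intergenic) lay 8091 bases upstream of the start site and went from 29.4 normalized counts in DMSO to 5.85 in dTAG13. Its log2 fold change by the authors' deposited table was -2.33 (SE 0.52 and adjusted p 0.00145, 95% interval -3.34 to -1.31), about 5.02-fold lower. That SE is at percentile 98.05 among the 2000 peaks of most similar mean, whose median SE was 0.44. The region was the only peak of the 10 genes that was both called and past an absolute log2 value of 1, which 5.04% of all tested peaks were, and it was found in the DMSO list alone. The peak is poor in GC (43.9%), in the lowest of 10 bins of nearly equal size by GC content, whose median on the log2 scale was -0.91. With the median set to 0 within each of these bins, its log2 fold change was -1.42 and the call was lost (adjusted p 0.0826). Whether GC content has a part in the change was not tested.

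At the Tbx20 promoter, the strongest peak of the gene (chromosome 9, 24774213 to 24774536) had 58.4 normalized counts in DMSO and 46.2 in dTAG13. Its log2 fold change of -0.34 (SE 0.25) by the authors' deposited table was not called (adjusted p 0.489), and its interval of -0.83 to 0.16 does not reach a 2-fold change. A peak 2461 bases upstream had levels of 27.6 and 17.6 (log2 fold change -0.65, SE 0.39, adjusted p 0.355 by the authors' deposited table). In all, 8 of the 10 Tbx20 peaks had negative values, or 7 with the median of all peaks set to 0. Of all peaks, 58.2% had a negative value. The peaks with positive values lay farthest from the gene, 74163 and 76756 bases upstream. Their log2 fold changes were 0.52 (SE 0.41) and 0.83 (SE 0.76) by the authors' deposited table. Of the 10 peaks, 6 (60%) were in the DMSO list alone, against 40.1% of all peaks. The positive peak 76756 bases upstream was among these 6. Peaks in that list alone entered the table through the DMSO group, so the count of negative values is not separate evidence beside the called peak. The weakest peaks, at 13684, 37346 and 59601 bases upstream, had means of 2.29 to 4.26 and SE of 1.04 to 1.37, too large to show even a 2-fold change. A peak in intron 4 of 7 had levels of 8.48 and 4.60 (adjusted p 0.532), and a peak 7026 bases upstream, the closest neighbour of the called region, had 6.03 and 5.40 (adjusted p 0.934).

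**Figure D2:**
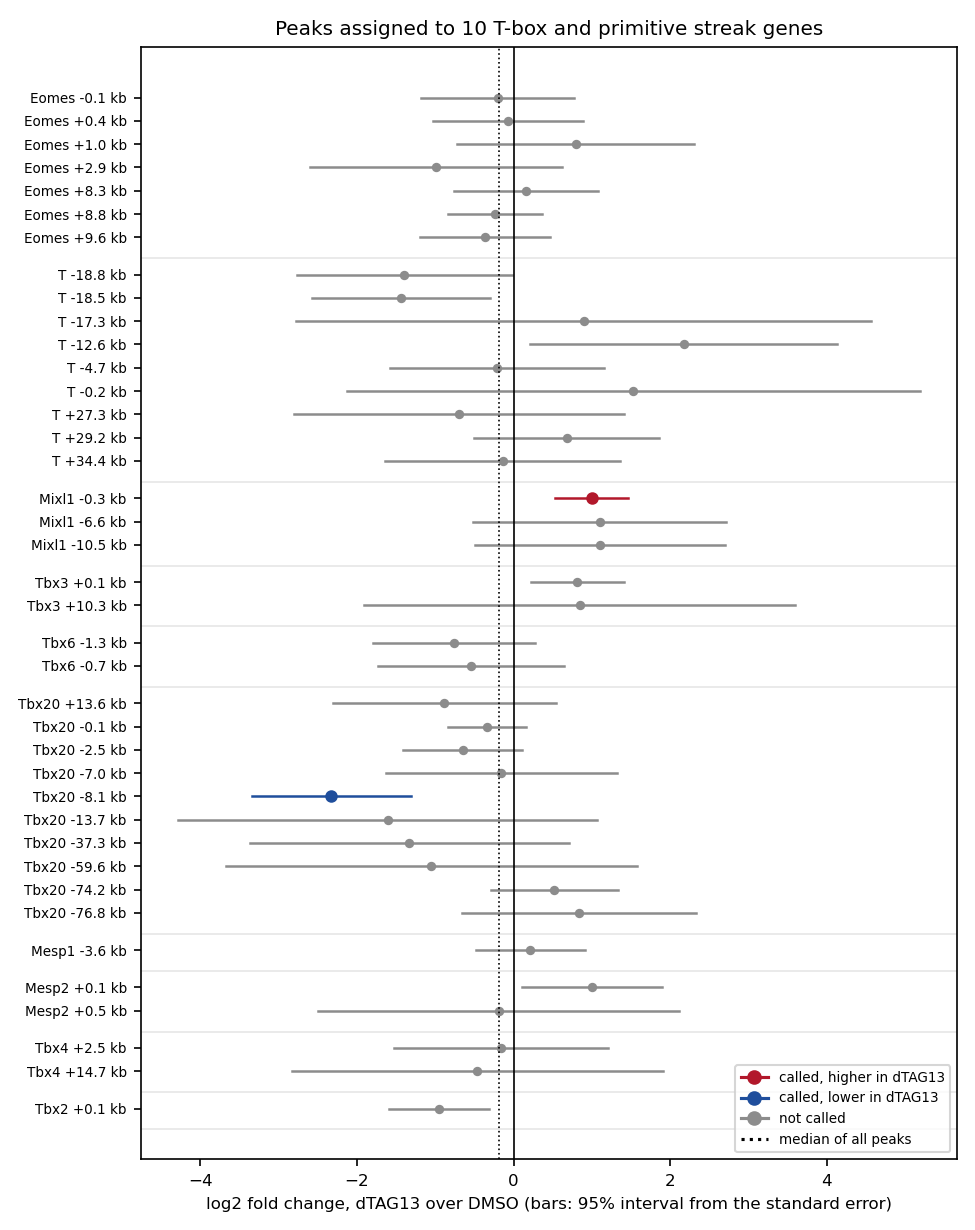
Log2 fold change of dTAG13 over DMSO for each of the 39 peaks, labelled by gene and distance from the start site in kb, with bars for the 95% interval from the SE. The red Mixl1 and blue Tbx20 peaks are the called ones; the grey peaks have intervals that mostly cross 0, and the dotted line is the median of all peaks at -0.18.

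Eomes, the T-box factor needed for endoderm, had 0 of its 7 peaks called, beside 5.26% of all tested peaks. The start-site peak (chromosome 9, 118478099 to 118478215) had 13.5 normalized counts in DMSO and 11.7 in dTAG13, a log2 fold change of -0.20 (SE 0.50 and adjusted p 0.864 by the authors' deposited table). A peak in an exon 435 bases into the gene had levels of 14.0 and 13.3 (log2 fold change -0.08, SE 0.49, adjusted p 0.952 by the authors' deposited table), the log2 fold change nearest to 0 among the 39. Most of the signal assigned to Eomes lay behind the gene, in 3 peaks with midpoints 8312, 8823 and 9627 bases from the start site, all nearer to a start site of Gm33460. The middle of these (chromosome 9, 118486899 to 118487170) was the strongest, with 43.0 in DMSO and 36.4 in dTAG13 (log2 fold change -0.24, SE 0.30, adjusted p 0.715 by the authors' deposited table). Its 95% interval, -0.83 to 0.36, does not reach a 2-fold change in either direction. The neighbours had 13.7 and 19.95 in DMSO against 15.3 and 15.5 in dTAG13. The last Eomes peaks, 1009 and 2907 bases into the gene, had values of opposite sign, 0.79 (SE 0.77) and -0.99 (SE 0.82) by the authors' deposited table. No Eomes peak had an unadjusted p under 0.05.

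Peaks assigned to T were weak, and none was called. The start-site peak (chromosome 17, 8434127 to 8434242), 238 bases upstream, had a mean of only 5.00 normalized counts and was found in the dTAG13 list alone. Its levels of 2.57 in DMSO and 7.43 in dTAG13 correspond to a log2 fold change of 1.53 by the authors' deposited table, but with an SE of 1.87 (adjusted p 0.698). That SE is at percentile 98.9 among the 2000 peaks of most similar mean, whose median SE was 0.88. The same holds for a peak 17322 bases upstream, with an SE of 1.87, and for the Tbx3 peak inside the gene, with an SE of 1.40 at percentile 99.4 (median of similar peaks 0.66). With 1 fold change and 1 SE per peak, the libraries behind this spread cannot be told apart.

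The strongest T peak (chromosome 17, 8415806 to 8416041) lay 18499 bases upstream, in an intron of the neighbouring gene T2 (intron 7 of 10 by the authors' annotation). It had 15.8 normalized counts in DMSO and 5.83 in dTAG13, a log2 fold change of -1.44 (SE 0.58, unadjusted p 0.0132, adjusted p 0.123 by the authors' deposited table). A peak beside it, 18781 bases upstream in the same intron, had 11.4 and 4.33 (log2 fold change -1.40, SE 0.70, adjusted p 0.246 by the authors' deposited table). In the last intron of T2, 12593 bases upstream of T, a weak peak had the opposite sign, with 1.62 in DMSO and 7.32 in dTAG13 (log2 fold change 2.17, SE 0.999, adjusted p 0.192 by the authors' deposited table). These 3 peaks were the only ones at T with an unadjusted p under 0.05, and none held its significance after adjustment. The first and second were in the DMSO list alone and the third in the dTAG13 list alone. Each was thus listed only in the group where it was higher, which is not separate evidence for its direction. The 3 peaks downstream of T, 27342 to 34443 bases from its start, had log2 fold changes of -0.70, 0.68 and -0.14 by the authors' deposited table, and the peak 4731 bases upstream had -0.21, all with adjusted p of at least 0.566.

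The mesoderm factors of the basic helix-loop-helix family showed no called peak. The Mesp2 start-site peak (chromosome 7, 79810679 to 79810923) had 12.4 normalized counts in DMSO and 24.9 in dTAG13. Its log2 fold change of 0.9999 by the authors' deposited table is as large as that of Mixl1, but the peak is weaker, with a mean of 18.7 (SE 0.46, unadjusted p 0.0280, adjusted p 0.186). A second Mesp2 peak inside the gene had 3.53 and 3.10. The Mesp1 peak (chromosome 7, 79797236 to 79797490), 3575 bases upstream, had 22.7 and 26.3, a log2 fold change of 0.21 (SE 0.36 and adjusted p 0.789 by the authors' deposited table) with an interval of -0.48 to 0.91. No peak assigned to Mesp1 lay at its start site. For Tbx6, both peaks were on the negative side without a call. They lay 1344 and 693 bases upstream, the first over an exon of the neighbouring gene Ypel3, and had 15.4 and 11.8 in DMSO against 9.08 and 8.12 in dTAG13. Their log2 fold changes were -0.76 (SE 0.53 and adjusted p 0.442) and -0.54 (SE 0.61 and adjusted p 0.668) by the authors' deposited table. Both were in the DMSO list alone, the group where they were higher, which is not separate evidence for their direction.

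The paralogs Tbx2 and Tbx3, both known mainly as repressors, had promoter peaks on opposite sides of 0, each short of a call. At Tbx3 (chromosome 5, 119670511 to 119671040) the level was 32.2 normalized counts in DMSO and 56.7 in dTAG13, a log2 fold change of 0.81 (SE 0.30 and adjusted p 0.0913 by the authors' deposited table). At Tbx2 (chromosome 11, 85832421 to 85832798) it was 40.1 and 20.7, a log2 fold change of -0.95 (SE 0.33 and adjusted p 0.0593 by the authors' deposited table). These calls depended on the zero point. The Tbx3 peak was called with the median of all peaks set to 0 (log2 fold change 0.99, adjusted p 0.0291). The Tbx2 peak was called with the median of the peaks of both lists set to 0 (-1.05, adjusted p 0.0329) and with the median set to 0 within GC bins (-0.99, adjusted p 0.0473). The difference between the genes was not tested. The second Tbx3 peak, in an exon 10263 bases into the gene, had 6.11 and 11.0 with the large SE given above (adjusted p 0.788). Tbx4, which lies beside Tbx2 on chromosome 11, had a peak near its start (chromosome 11, 85888818 to 85888951) with 9.33 and 8.35 and a peak in intron 5 of 8 with 3.26 and 2.36, and neither was called (adjusted p 0.927 and 0.873 by the authors' deposited table).

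**Figure D3:**
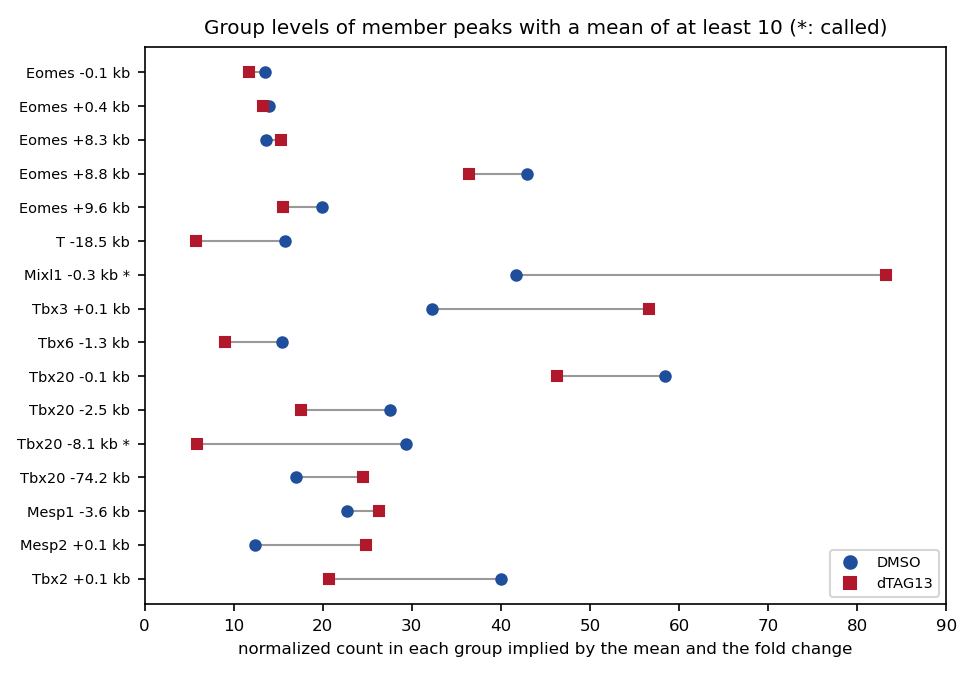
Levels in normalized counts in DMSO (circles) and dTAG13 (squares) of the 16 peaks with a mean of at least 10, computed from the mean and the fold change; no error can be drawn for a group's level. The Mixl1 promoter runs from 41.7 to 83.2 and the Tbx20 upstream peak from 29.4 to 5.85; the Eomes pairs lie close together.

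Per 100 bases of peak, and over both groups together, the peak nearest to the start site had its highest mean at Tbx20 (16.1 normalized counts), followed by Tbx6 (13.7), Eomes (10.8), Mesp1 (9.60), Mixl1 (9.11), Tbx3 (8.39), Tbx2 (8.04), Mesp2 (7.62), Tbx4 (6.59) and T (4.31). No error per library is available for these levels, so neighbours in this order cannot be said to differ. The peaks ranged in length from 73 bases at Tbx6 to 685 at Mixl1, and the order depends on dividing by that length. Not all of them lie at a start site: that of Mesp1 was 3575 bases upstream and that of Tbx4 2463 bases after the 5′-most start. The order also differed between the groups. Mixl1 was at 6.08 in DMSO and 12.15 in dTAG13, ranks 8 and 2 of the 10, and Tbx2 at 10.6 and 5.48, ranks 4 and 10. Tbx20 ranked first in both groups. The T start-site peak stood at percentile 26.5 of all peaks on this scale and that of Tbx20 at 96.6.

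**Figure D4:**
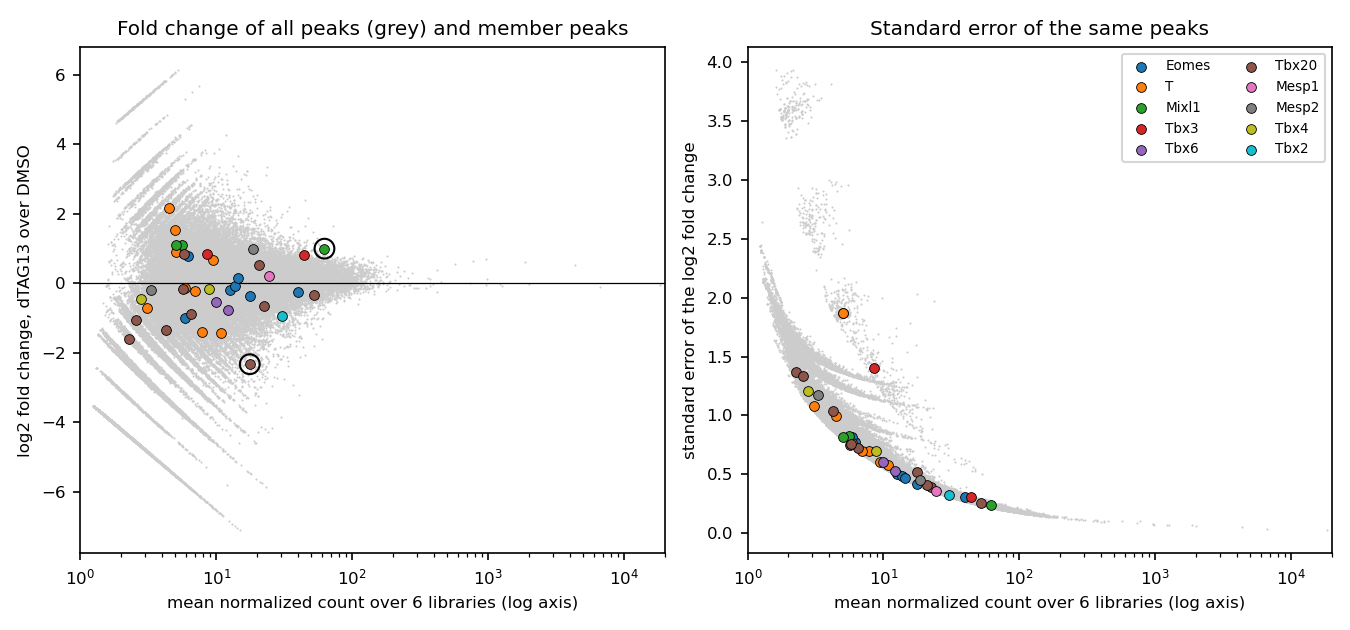
Log2 fold change of dTAG13 over DMSO (left) and its SE (right) against the mean normalized count on a log axis, for all 70494 peaks in grey and the 39 peaks in colour by gene. The ringed peaks are the called ones; at right, the T peaks with an SE of 1.87 and the Tbx3 peak with 1.40 stand above the main band.

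Other features of the 39 peaks are given beside those of all peaks, with no test. Their median length was 122 bases against 131 for all peaks, and 16 (41.0%) were promoter peaks within 3 kb in the authors' annotation, against 39.1%. Distal intergenic peaks made up 17 (43.6%) against 31.2%, and intronic ones 6 (15.4%) against 26.1%. The median GC content was 58.9% against 54.8%. Of the 39 peaks, 14 (35.9%) overlapped both pooled lists, 18 (46.2%) the DMSO list alone and 7 (17.9%) the dTAG13 list alone, beside 48.2%, 40.1% and 11.8% of all peaks. Membership of a list was decided by the same libraries as the fold change and is not separate evidence. The 12 peaks within 1 kb of a start site had a median log2 fold change of 0.36 and the 23 outside promoters one of -0.21. For all peaks of these kinds the medians were 0.03 and -0.39. The 12 values split evenly by sign, and their median lies in a gap between -0.08 and 0.79, so it does not show a common shift.

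Consensus sequences were sought on both strands within 100 bases of each midpoint, a window of 200 bases. Matches in the sequences shown above that lie outside this window are not counted here. These are the TCF/LEF and TEAD matches of the Mixl1 promoter and the T-box core of the Eomes downstream peak. The OTX consensus GGATTA occurred in 3 of the 39 peaks (7.69%), against 8.81% of all peaks, and 1 peak (2.56%, against 7.06%) held its reversed control ATTAGG, overlapping an OTX match. The OTX matches lay in the Eomes peaks 8312 and 8823 bases from the start and beside a weak Tbx20 peak 13684 bases upstream, none of which was called. Neither called peak had an OTX match in this window. Within 250 bases the called Tbx20 peak had an OTX match and also a match to the reversed control. At that width the OTX consensus occurred in 15.4% of the 39 peaks, against 17% of all peaks. The reversed control occurred in 10.3%, against 15.3%. The T-box consensus AGGTGTGA occurred in 1 peak (2.56%, against 1.71%), 131 bases after the Mesp2 start site, in an exon. Its core GGTGTG, which also counts every match of the longer form, occurred in 4 (10.3%, against 15.2%). Within 250 bases the core occurred in 9 (23.1%, against 31.3%). The FOXH1 consensus AATCCACA, that of a partner of SMAD proteins in NODAL signalling, occurred in 3 (7.69%, against 1.13%): at Mixl1, Mesp2 and the Tbx3 peak inside the gene. In the Mixl1 promoter it starts 246 bases upstream of the start site. The FOXH1 matches at Mesp2 and Tbx3 lie in annotated exons of these genes. The TCF/LEF consensus CTTTGAT occurred in 2 (5.13%, against 2.83%), at Tbx6 and at a T peak in the T2 introns. Within 250 bases it occurred in 6 (15.4%, against 7.09%), the called Mixl1 peak among them. The TEAD consensus GGAATG occurred in 3 (7.69%, against 11.5%), or in 8 within 250 bases (20.5%, against 25.5%). The SOX consensus ATTGTT also occurred in 3 (7.69%, against 8.80%). GATA matches (AGATAA) were found in 5 peaks (12.8%, against 15.6%). FOX matches (TGTTTAC) were found in 2 peaks (5.13%, against 5.33%), and no peak held the POU consensus ATGCAAAT (1.21% of all peaks). A match describes the letters and not binding, and with 39 peaks each match moves a share by 2.56 percentage points.

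Around the 10 genes, 90 peaks lay within 50000 bases of a start site, 54 of them assigned to other genes. Among these 54, 1 (1.85%, beside 5.26% of all tested peaks) was called by the authors' deposited table: a peak assigned to Anpep, 33816 bases downstream of the Mesp2 start site, with 7.50 normalized counts in DMSO and 0.212 in dTAG13 (adjusted p 0.0152). At so low a level in dTAG13 its fold change is not well determined. In the window of Eomes, 4 of 15 peaks had an unadjusted p under 0.05, as had 19.7% of all peaks. Such peaks numbered 3 of 9 in the window of Tbx3, 3 of 13 in that of T and 0 to 2 in each other window. Those in the Eomes window were assigned to Gm22479, before the gene, and to Golga4, behind it. All 4 were found in the dTAG13 list alone, and so entered the table through the group where they were higher. Their direction is therefore not separate evidence of a gain at Eomes. Their levels were 0.526 to 5.36 normalized counts in DMSO and 6.78 to 13.6 in dTAG13. None was called (adjusted p 0.0788 to 0.208 by the authors' deposited table), and they were singled out after their values were seen.

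Other genes of the same families and pathways were counted in the same way, beside the 5.26% of all tested peaks that were called and the 19.7% of all peaks with an unadjusted p under 0.05. Of 10 further T-box genes, 7 had peaks, and none of their 14 peaks was called by the authors' deposited table (2 had an unadjusted p under 0.05, or 14.3%). Of 94 peaks at 23 genes that act before, beside or after the streak factors, 3 were called (3.19%), and 13 had an unadjusted p under 0.05 (13.8%). An intergenic peak (chromosome 2, 167543373 to 167543740) was assigned to Snai1, a repressor of E-cadherin in cells leaving the streak. This peak went from 10.4 to 34.5 normalized counts, a log2 fold change of 1.73 (SE 0.42 and adjusted p 0.00353 by the authors' deposited table). An intronic peak of Smad2, a transducer of NODAL, went from 21.3 to 3.09, a log2 fold change of -2.79 (SE 0.67 and adjusted p 0.0034 by the authors' deposited table). The third, an intergenic peak assigned to Fgf8 and higher in dTAG13, had an adjusted p of 0.0496 by the authors' deposited table. The Snai1 and Fgf8 peaks were in the dTAG13 list alone and the Smad2 peak in the DMSO list alone. Each thus entered the table through the group where it was higher. Among cell type markers, 3 of 46 endoderm peaks (all at Cxcr4) and 1 of 32 tested mesoderm peaks (at Kdr) were called, each lower in dTAG13. Of 14 epiblast peaks 3 were called (Pou5f1 and Utf1 lower, Nanog higher), and of 16 neural peaks 1 (Sox1, higher). The shares called were 6.52% for endoderm, 3.12% for mesoderm, 21.4% for epiblast and 6.25% for neural markers, beside 5.26% of all tested peaks. An unadjusted p under 0.05 was given to 32.6%, 30.3%, 35.7% and 12.5% of their peaks in the same order, beside 19.7% of all peaks. Summed over each list, levels went from 916.1 in DMSO to 688.7 in dTAG13 for endoderm, from 359.8 to 310.0 for mesoderm, from 276.4 to 240.4 for epiblast and from 141.8 to 148.4 for neural markers. Over all peaks the sum went from 995918 to 957618. The median log2 fold changes of the lists were -0.50, -0.29, -0.09 and -0.40 in the same order, beside -0.18 for all peaks. The part of these markers in the Mixl1 and Tbx20 results was not tested. In bulk cells a change in the share of a cell type and a change within each cell cannot be told apart.

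The table also marks genes in a pair of columns headed as genes that went down or up, whose making is not given in the sources used here. Of the 26796 genes named in the table, 370 (1.38%) were marked as down and 429 (1.60%) as up. Tbx20 was the only gene of the 10 marked as down, and Eomes and Mixl1 were marked as up. The mark thus had the same direction as the called peak at Tbx20 and at Mixl1. Eomes carried an up mark with 0 of its 7 peaks called, beside 5.26% of all tested peaks. Whether marks and calls go together over all genes was not tested.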

How the data were processed

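ATAC-seq libraries (3 DMSO, 3 dTAG13, 50000 sorted cells each per the labels) were analysed from the peak table and pooled peak lists deposited by the authors. Per the submitters' processing notes, fastp, Bowtie2, MACS2, featureCounts, HOMER 4.11 and ChIPseeker were used with build mm10. Parameters, duplicate handling and any shift of read ends are not given in the sources used here. The signal of each peak by the authors' deposited table is read from its column name as a mean of normalized counts over the libraries; how the counts were scaled is not given in the sources used here. The log2 fold changes and their SE, the score (fold change over SE) and the p-values were used as the authors deposited them. The deposited score equals the fold change over its SE to within 8.72e-07, and the adjusted p the Benjamini-Hochberg value to within 7.87e-06. The 1366 peaks with a mean of at most 1.87 have no adjusted p in the deposited table. All 39 peaks described have one.

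Group levels, 95% normal intervals, overlaps (at least 1 base), distances to the start sites of GENCODE mouse release M21 and motif matches in GRCm38.p6 were computed with Python 3.11.15, numpy 2.4.6, pandas 2.3.3, scipy 1.17.1 and pysam 0.24.0, and the functions were checked on simulated data. No further differential test was run, since the table gives 1 comparison and no values per library. The genes and lists were chosen with earlier results of these data known. Peaks were named by rule: called peaks, and per gene the peak with the smallest p, the highest mean and the position nearest to a start site. All other peaks of the 10 genes are given by value or range. Alternatives covered weak peaks, zero points, thresholds, gene assignment, overlap and motif window.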

Additional observations from a re-analysis of the deposited data

How the results depend on the processing

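With each of the 3 filters on weak peaks (none, a mean of at least 5 or of at least 10) and at an adjusted p under 0.01, the same 2 peaks were called, Mixl1 and Tbx20. Setting the median of all peaks to 0 gave 2 higher calls (Mixl1 and Tbx3) and, with Mixl1 at 1.18, 2 peaks both called and past an absolute log2 fold change of 1. Setting that of peaks in both lists to 0 gave 2 lower calls (Tbx20 and Tbx2) and also 2 peaks both called and past 1. With the median set to 0 within 10 bins of GC content Tbx20 lost its call and Tbx2 gained it. An adjusted p under 0.1 gave 4 calls, 2 lower and 2 higher. Assignment to the nearest GENCODE start site left 28 peaks with 1 call (Mixl1), 0 lower and 0 both called and past 1, since the Tbx20 region lies nearest to Gm29824. The 90 peaks within 50000 bases gave 2 lower calls and 2 both called and past 1, with the Anpep peak added. A condition of at least 0.5 on the absolute log2 fold change of called peaks gave 2 peaks, with Mixl1. Over the 346 pairs of a peak and a setting, 340 stayed on the same side of the threshold, most of them uncalled in both cases. A call was lost in 1 pair and gained in 5, and 0 called values changed sign. Of the uncalled peaks 5 changed sign. Motif counts followed the window: 50 and 250 bases on each side gave 1 and 6 peaks with the OTX and 0 and 1 with the T-box consensus. No paired analysis was possible because values of single libraries are not part of the peak table used here. For the same reason leaving out libraries and other count models were not run.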
